A study of Mus musculus with 24 samples.

Results

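At 239 chromatin regions, accessibility was higher with LPS in bone marrow-derived macrophages (BMDMs) that lacked the aryl hydrocarbon receptor (AhR), while in wildtype (WT) BMDMs it rose little, stayed level or was lower. They were taken from 176815 consensus peaks on chromosomes 1 to 19, out of 184158 consensus peaks in all, without a stretch of 40 Mb of chromosome 12 around Ahr, the gene that was disrupted. Members were chosen by mean accessibility in the 4 groups. A peak was a member when the mean CPM (a peak's count per 1 M counts of its library in all consensus peaks, where M is a factor of 1e6) of the 6 AhR-KO LPS libraries was at least 2.5 times that of the 6 AhR-KO unstimulated libraries and at least 1, while the WT LPS mean stayed less than 25% above the WT unstimulated mean. Inside the left-out stretch of chromosome 12, 10 further peaks met the 3 thresholds and were not used. All 4 group means thus entered the choice, so the members' levels in the 4 groups are given as a description with no test.

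Accessibility was read by ATAC-seq, an assay that sequences the fragments a transposase releases from open chromatin. The 24 libraries formed 4 groups of 6, from WT and AhR-KO cells, each unstimulated or with LPS. WT marrow came from C57BL/6J mice and AhR-KO marrow from B6.129-Ahr tm1Bra/J mice, which lack AhR in all cells and carry DNA of the 129 strain next to Ahr. The study used age- and sex-matched young adult mice of both sexes, with 6 animals per group from one experiment. All cultures were grown with GM-CSF at 10 ng/ml and TGF-β at 2 ng/ml to resemble alveolar macrophages. Stimulated cells got 97 EU/ml of LPS, the bacterial ligand of TLR4, from day 6 on for 24 h. Treatment with 5 µM of the calcium ionophore A23187 lasted 10 min and came after LPS. Since the labels of unstimulated libraries carry the same text, it was not given whether those cells received the ionophore.

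Resting macrophage chromatin is held open mostly by lineage factors such as PU.1, RUNX and C/EBP proteins. AhR is activated by small ligands from diet, microbes and metabolism, and it tunes inflammatory responses in macrophages. LPS brings in NF-kB, AP-1, interferon regulatory and STAT factors, which open further enhancers, the distal elements that regulate genes over long distances. AhR binds DNA with its partner ARNT at a core of GCGTG.

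The libraries held 8.54 to 34.6 M counts each, and WT unstimulated replicate 5 was the shallowest. No consensus peak lay over exon 2 of Ahr, so the counts could not check the deletion itself. Of the 13 consensus peaks over Ahr, 9 separated the 12 WT from the 12 AhR-KO libraries. Of these 9, only the peak over its start site was higher in WT, with 19.2 to 24.7 CPM against 11.6 to 16.9 CPM. The rest of the 9 were higher in AhR-KO, such as chr12:35513938-35516182 with 4.59 to 11.8 CPM against 1.13 to 2.26 CPM in WT. Of 7 macrophage marker genes, 6 had a tested peak over a start site, with group means of 11.5 to 35.8 CPM. Of T cell markers 0 of 5 had one, of mast cell markers 0 of 4, of B cell markers 1 of 5, of neutrophil markers 2 of 5, of fibroblast markers 2 of 4 and of dendritic cell markers 3 of 5. Among the last, the Zbtb46 peak held 21.6 and 18.1 CPM in WT and 24.96 and 15.6 CPM in AhR-KO cells without and with LPS, the Flt3 peak held 9.04 and 11.6 CPM in WT and 4.05 and 4.68 CPM in AhR-KO cells, and the Ccr7 peak 0.940 and 7.11 CPM in WT and 0.547 and 2.44 CPM in AhR-KO cells. Some markers of other cell types reached the macrophage range: group means were 16.4 to 23.8 CPM at S100a8 (neutrophil) and 11.7 to 16.4 CPM at Pdgfra (fibroblast). Lower means were found at Ebf1 (B cell, 6.17 to 7.63 CPM), S100a9 (neutrophil, 0.563 to 3.13 CPM) and Col1a2 (fibroblast, 0.467 to 0.714 CPM). The part of these markers in the results was not tested, and in bulk libraries fewer cells of a type cannot be told apart from less open chromatin per cell.

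To show what the members look like, the reference sequence around the centre of 10 of them is given below, 300 bases each, from RefSeq GRCm38.p6 on the plus strand. They were taken from the members with the largest genotype difference in the LPS response, the most accessible ones, and those near genes of the inflammatory and AhR lists. Capitals mark letters of AP-1 (TGANTCA), PU.1 (GGAAGT), RUNX (TGTGGT) or the AhR core (GCGTG), on either strand, and none of these windows held NF-kB letters. Coordinates of peaks are as in the deposited table, whose starts lie 1 base before the first base of the called peak.
Mbl2, chr19:30324747-30325046: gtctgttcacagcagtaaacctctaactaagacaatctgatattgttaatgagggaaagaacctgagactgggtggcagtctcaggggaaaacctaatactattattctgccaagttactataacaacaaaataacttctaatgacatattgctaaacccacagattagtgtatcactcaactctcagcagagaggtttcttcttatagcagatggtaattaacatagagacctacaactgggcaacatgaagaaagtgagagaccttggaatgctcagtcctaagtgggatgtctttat
Calb1, chr4:15633274-15633573: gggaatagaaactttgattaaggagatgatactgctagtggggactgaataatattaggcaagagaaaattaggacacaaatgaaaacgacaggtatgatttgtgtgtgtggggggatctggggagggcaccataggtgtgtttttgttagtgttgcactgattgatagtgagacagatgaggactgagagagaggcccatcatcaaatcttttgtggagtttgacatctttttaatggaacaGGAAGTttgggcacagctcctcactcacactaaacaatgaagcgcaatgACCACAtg
Fam184a, chr10:53645980-53646279: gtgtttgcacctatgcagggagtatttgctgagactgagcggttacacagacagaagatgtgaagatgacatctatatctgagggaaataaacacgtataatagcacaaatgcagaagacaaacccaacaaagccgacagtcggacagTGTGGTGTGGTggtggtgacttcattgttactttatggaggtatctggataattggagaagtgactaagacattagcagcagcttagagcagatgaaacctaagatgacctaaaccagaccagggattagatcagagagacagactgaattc
Muc16, chr9:18637086-18637385: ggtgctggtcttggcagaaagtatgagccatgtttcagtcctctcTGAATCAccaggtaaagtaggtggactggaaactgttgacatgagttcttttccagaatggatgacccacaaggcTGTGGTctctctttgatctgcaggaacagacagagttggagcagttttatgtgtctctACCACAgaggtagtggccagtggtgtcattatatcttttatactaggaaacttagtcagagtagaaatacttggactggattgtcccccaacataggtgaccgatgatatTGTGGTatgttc
Fam49a, chr12:12274923-12275222: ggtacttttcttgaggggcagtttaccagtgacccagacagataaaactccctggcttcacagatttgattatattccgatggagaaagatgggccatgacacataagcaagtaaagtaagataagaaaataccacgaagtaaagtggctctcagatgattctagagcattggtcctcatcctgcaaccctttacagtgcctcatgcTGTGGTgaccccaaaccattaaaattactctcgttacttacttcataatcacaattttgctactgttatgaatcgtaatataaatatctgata
Epb41l3, chr17:69189140-69189439: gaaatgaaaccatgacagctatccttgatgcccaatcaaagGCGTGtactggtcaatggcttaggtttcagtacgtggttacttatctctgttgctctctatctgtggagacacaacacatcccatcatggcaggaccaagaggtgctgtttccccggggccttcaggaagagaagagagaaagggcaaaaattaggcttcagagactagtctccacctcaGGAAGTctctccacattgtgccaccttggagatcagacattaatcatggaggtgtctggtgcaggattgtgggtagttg
Camk1g, chr1:193398695-193398994: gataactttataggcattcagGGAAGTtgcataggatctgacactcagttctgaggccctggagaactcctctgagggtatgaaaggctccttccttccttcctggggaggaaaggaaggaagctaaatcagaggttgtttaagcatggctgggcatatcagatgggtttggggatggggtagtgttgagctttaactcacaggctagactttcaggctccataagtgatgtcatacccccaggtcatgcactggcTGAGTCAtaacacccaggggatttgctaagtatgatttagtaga
Cd80, chr16:38468651-38468950: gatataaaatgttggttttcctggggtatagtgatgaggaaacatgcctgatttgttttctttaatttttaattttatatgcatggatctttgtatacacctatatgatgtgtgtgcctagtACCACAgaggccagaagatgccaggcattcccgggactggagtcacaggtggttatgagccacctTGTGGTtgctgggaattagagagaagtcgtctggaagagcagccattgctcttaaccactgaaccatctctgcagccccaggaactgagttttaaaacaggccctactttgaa
Kynu, chr2:43341899-43342198: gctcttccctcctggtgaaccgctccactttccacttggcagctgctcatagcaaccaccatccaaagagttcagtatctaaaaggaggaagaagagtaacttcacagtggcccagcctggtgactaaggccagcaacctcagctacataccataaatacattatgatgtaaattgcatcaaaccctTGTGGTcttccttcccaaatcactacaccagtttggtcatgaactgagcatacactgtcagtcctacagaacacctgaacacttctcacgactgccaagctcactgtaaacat
Ifi44, chr3:151742354-151742653: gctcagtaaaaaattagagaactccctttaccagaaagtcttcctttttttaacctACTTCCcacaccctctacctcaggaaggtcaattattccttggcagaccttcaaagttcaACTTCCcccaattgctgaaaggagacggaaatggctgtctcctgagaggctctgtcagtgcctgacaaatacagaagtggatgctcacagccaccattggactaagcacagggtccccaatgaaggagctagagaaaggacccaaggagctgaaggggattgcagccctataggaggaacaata

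Most of these windows held few of the letters. The Mbl2 window held 0 of them, the Epb41l3 window 1 GCGTG and 1 PU.1 match, the Camk1g window 1 AP-1 and 1 PU.1 match, and the Muc16 window 1 AP-1 and 3 RUNX matches. A match is a run of letters and does not show that a factor was bound.

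LPS raised accessibility at the members by a median of 2.91-fold in AhR-KO cells, from 2.5-fold to 7.85-fold, and by a median of 1.11-fold in WT cells, from 0.372-fold to 1.249-fold. The median level went from 0.597 to 1.85 CPM in AhR-KO cells and from 1.03 to 1.11 CPM in WT cells. Most members were weak and moderate in fold: 132 of 239 stayed under 2 CPM with LPS in AhR-KO cells and 27 reached 5 CPM, while 143 had a fold under 3 and 18 a fold of at least 4. In counts, AhR-KO LPS libraries held a median of 47.5 per member and AhR-KO unstimulated libraries a median of 13.5. In WT cells, LPS lowered the mean at 62 members and brought it under 0.8 times the resting mean at 23.

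**Figure D1:**
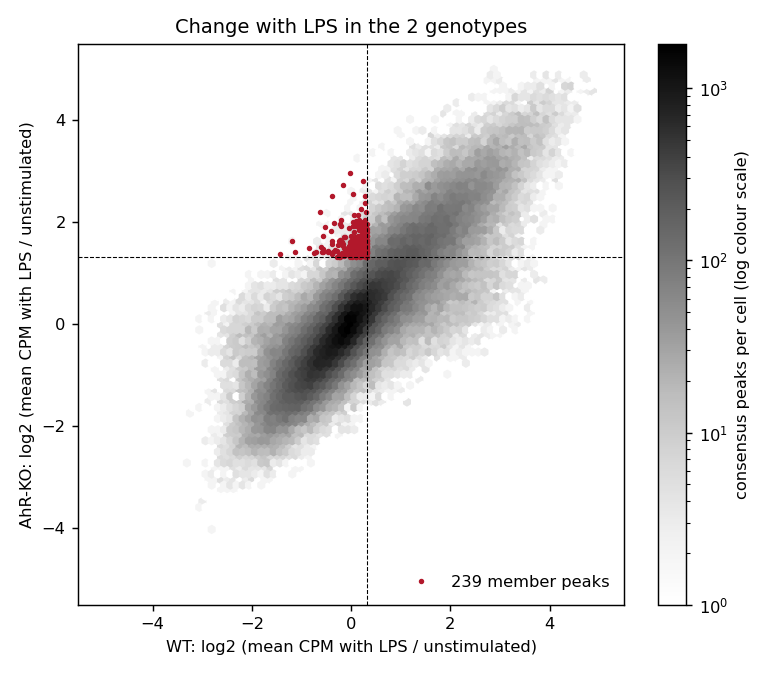
Change with LPS in WT (x axis) and AhR-KO (y axis) cells, each as log2 of the ratio of the mean CPM of 6 LPS libraries to that of 6 unstimulated libraries. Grey cells count 176714 of the 176815 eligible peaks that fall within the axes (darker is more, on a log colour scale), red points are the 239 members, and dashed lines mark the folds of the rule, 2.5 for AhR-KO and a rise of 25% for WT, so that the members fill the upper left corner at the edge of the main cloud.

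The thresholds cut through a continuous distribution. Just inside the AhR-KO fold threshold lay a peak near Lrrk2 with 2.505-fold, and just outside lay peaks near Cubn with 2.4992-fold and Nnat with 2.499-fold. At the level threshold, peaks near Aes and Calb1 were inside with 1.001 and 1.005 CPM, and peaks near Sema6d and Gcnt4 were outside with 0.998 and 0.992 CPM. At the WT threshold, peaks near Sec16b and Ero1l were inside with 1.2492-fold and 1.2491-fold, and peaks near Kif2b and Fam229b were outside with 1.2509-fold and 1.2513-fold. The mirrored rule, with the genotypes exchanged, held at 770 peaks, and 13521 peaks rose at least 2.5-fold to at least 1 CPM in both genotypes.

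In edgeR's quasi-likelihood fit over all 174193 tested peaks, peaks that passed an adjusted p of 0.05 and changed 1.5-fold or more are called differentially accessible regions (DARs). All 239 members were tested. With LPS in AhR-KO cells, 27.3% of tested peaks and 239 of 239 members were higher DARs, and 21.5% of tested peaks and 0 members were lower ones. With LPS in WT cells, 25.4% of tested peaks and 0 members were higher DARs, and 21.6% of tested peaks and 11 members were lower ones. In the interaction, which is the LPS effect in AhR-KO minus that in WT, 5.83% of tested peaks and 229 of 239 members were DARs in the higher direction, and 4.58% of tested peaks and 0 members in the lower one. Between the genotypes with LPS, 150 members were higher DARs in AhR-KO cells (13.4% of tested peaks) and 17 lower ones (13.1%). Without LPS, 3 were higher (9.95%) and 110 lower (12.6%). The rule used these contrasts, so the members' counts show only what was chosen.

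The members reached the rule in different ways, which a split by genotype ratio at 1.5-fold, made after the values were seen, describes. At 120 members the AhR-KO unstimulated mean lay more than 1.5-fold below the WT unstimulated mean: 91 of them ended within 1.5-fold of WT or lower with LPS, and 29 ended at least 1.5-fold above it. At a further 118 members both genotypes started within 1.5-fold, or AhR-KO started higher, and AhR-KO ended at least 1.5-fold above WT. A single member fell in none of these classes. For the 91, the median levels were 2.90 CPM in WT and 0.788 in AhR-KO cells at rest, and 2.66 in WT and 2.27 in AhR-KO cells with LPS, so that LPS brought AhR-KO cells towards a level that WT cells already held at rest. For the 118, they were 0.609, 0.547, 0.674 and 1.62 CPM in the same order of groups, so that only AhR-KO LPS cells stood apart. For the 29, the medians were 0.969, 0.535, 0.815 and 1.74 CPM in this order. By these medians, the label of regions opened in AhR-KO only covers sites with similar WT levels at rest and with LPS. It also covers sites that were low in the 3 other groups. Of the 120 members lower at rest, 36 had a called peak in all 6 WT unstimulated libraries (34.4% of all eligible peaks). A further 20 had one in none of them (32.8% of all eligible peaks).

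**Figure D2:**
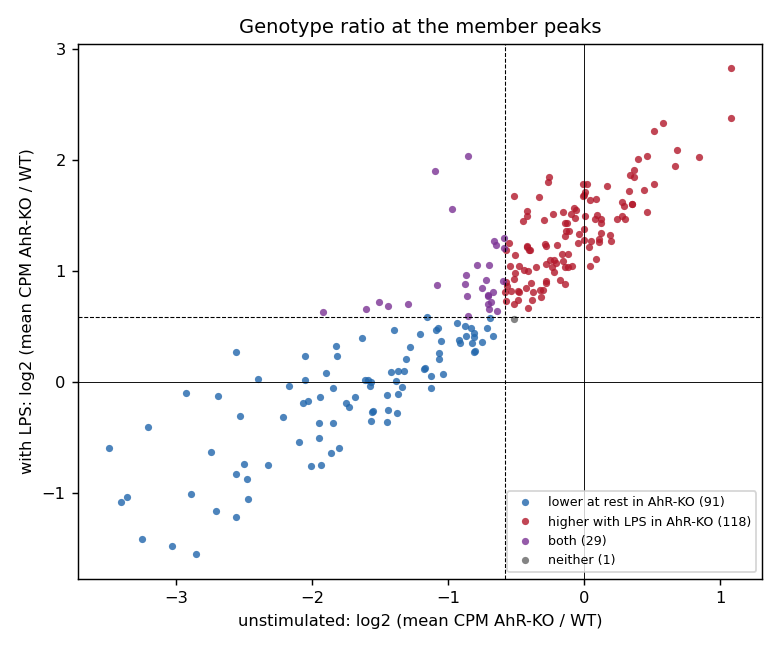
Ratio of AhR-KO to WT mean CPM at the 239 members, as log2, in unstimulated (x axis) and LPS (y axis) cells, with 1 point per member coloured by class. Dashed lines mark a 1.5-fold difference; 91 members lie left of the vertical line and below the horizontal one, 118 lie right and above, and 29 lie left and above.

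The 6 AhR-KO LPS libraries lay above all 6 AhR-KO unstimulated libraries at 229 of 239 members (24.7% of tested peaks). They lay above all 6 WT LPS libraries at 120 members (9.61% of tested peaks), 101 of which were among the 118. The 6 WT unstimulated libraries lay above all 6 AhR-KO unstimulated libraries at 82 members (11.6% of tested peaks), 74 of which were among the 91. WT LPS libraries lay above all AhR-KO LPS libraries at 7 members (9.86% of tested peaks). They lay above all WT unstimulated libraries at 0 members (20.8%), and below all of them at 1 member (17.8%). These counts follow from the choice of members.

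The most accessible members were sites open in WT at rest. The highest level in AhR-KO LPS cells was at chr12:12274443-12275702, in an intron of Fam49a, which encodes a protein that binds the small GTPase Rac1. Its 6 libraries ran from 7.73 over a median of 18.5 to 22.5 CPM in WT cells at rest and reached 21.1 CPM at most in WT LPS cells, with a median of 17.9. AhR-KO libraries ran from 4.81 over 5.65 to 6.35 CPM at rest and from 13.2 over 14.6 to 17.5 CPM with LPS. AhR-KO unstimulated libraries were the low group, below every library of the other 3 groups. The mean rose from 5.66 ± 0.571 to 15 ± 1.72 CPM with LPS in AhR-KO cells (SD, n = 6), 2.65-fold, and from 16.6 ± 5.72 to 17.9 ± 2.20 CPM in WT cells.

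A peak in an intron of Epb41l3, which encodes a protein of the membrane skeleton, showed the same order at chr17:69188793-69189786. Its libraries ran from 8.08 over 18 to 20.7 CPM in WT and from 2.98 over 3.51 to 5.46 CPM in AhR-KO cells at rest. With LPS they ran from 12.9 over 14.9 to 18.3 CPM in WT and from 7.06 over 10.7 to 14 CPM in AhR-KO cells. AhR-KO LPS libraries rose above all AhR-KO unstimulated ones and overlapped with WT LPS libraries. Means of 10.9 to 13.2 CPM in AhR-KO LPS cells were found at Plekha5 (chr6:140465867-140467359, intron, 3.34-fold over AhR-KO unstimulated), Camk1g, a calcium/calmodulin-dependent kinase gene (chr1:193398284-193399405, 28.5 kb upstream, 2.95-fold), and Tmc1 (chr19:21053484-21054067, 99.6 kb upstream, 2.72-fold). At these 3 peaks every library had a called peak in all 4 groups, so that the sites were open before LPS and changed in level. At Slc25a13, which encodes the mitochondrial aspartate-glutamate carrier, the peak at chr6:6186426-6187636 held 2.48 to 2.83 CPM in 5 AhR-KO unstimulated libraries and 5.64 CPM in the sixth, and 6.88 to 12.3 CPM with LPS.

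The next members are those with the largest difference in fold between the genotypes among the 117 whose AhR-KO LPS libraries lay above all AhR-KO unstimulated and all WT LPS libraries, so that this separation was part of how they were picked. The largest difference was at an intergenic peak at chr19:30324681-30325111, 92.0 kb downstream of the start of Mbl2, the gene of mannose-binding lectin. Its libraries ran from 0.221 over 0.420 to 0.849 CPM in WT and from 0.0881 over 0.242 to 0.266 CPM in AhR-KO cells at rest. With LPS they ran from 0.324 over 0.447 to 0.642 CPM in WT and from 1.09 over 1.76 to 2.18 CPM in AhR-KO cells. All 6 AhR-KO LPS libraries lay above the other 18. A peak was called there in 6 of 6 AhR-KO LPS libraries and in 0 libraries of each other group. The fold was 7.85 in AhR-KO and 0.98 in WT cells. Over all members, mean counts in AhR-KO unstimulated libraries went down to 3.5, so that large folds from such low levels rest on few counts.

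At Calb1, the gene of the calcium-binding protein calbindin, the peak at chr4:15633187-15633659 held 0.537 to 1.29 CPM in AhR-KO LPS libraries, and its means in the other groups were 0.275 CPM (WT at rest), 0.152 CPM (AhR-KO at rest) and 0.245 CPM (WT LPS). The peak at chr10:53645991-53646268, 951 bases downstream of a start site of Fam184a, held 1.16 over 2.10 to 2.90 CPM in AhR-KO LPS libraries and at most 0.949 CPM in the others. The peak at chr2:141084577-141084994, in an intron of Macrod2 and nearest to the start of the adhesion gene Flrt3, held 1.44 over 1.83 to 2.95 CPM in AhR-KO LPS libraries and at most 0.681 in the others. At Fam184a and Flrt3 the AhR-KO LPS libraries lay above all others, while at Calb1 the lowest of them lay below WT unstimulated replicate 5 (0.586 CPM). Muc16, the gene of a large membrane mucin, held a member in a coding exon at chr9:18636747-18637724 that was both lower at rest and higher with LPS: AhR-KO libraries ran from 0.881 over 1.14 to 1.55 CPM unstimulated and from 5.76 over 6.34 to 8.89 with LPS, against 1.87 over 3.75 to 4.70 and 3.0 over 4.30 to 5.09 in WT.

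Some of these members lay in repeated DNA, where reads are harder to place. Of the 300 bases around the centre, 98.7% were marked as repeats at the member upstream of Slco3a1, an organic anion transporter gene (chr7:74663085-74663457), and 66.7% at the member downstream of Setd4 (chr16:93408891-93409380). At Slco3a1, the WT mean went from 1.93 to 1.18 CPM with LPS and the AhR-KO mean went from 0.709 to 1.89 CPM. Of all members, 12.1% (29) had at least 50% of the window marked as repeats (exact 95% interval 8.28 to 17%), against 10.50% of all eligible peaks. Whether read placement took part in these values was not tested.

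**Figure D3:**
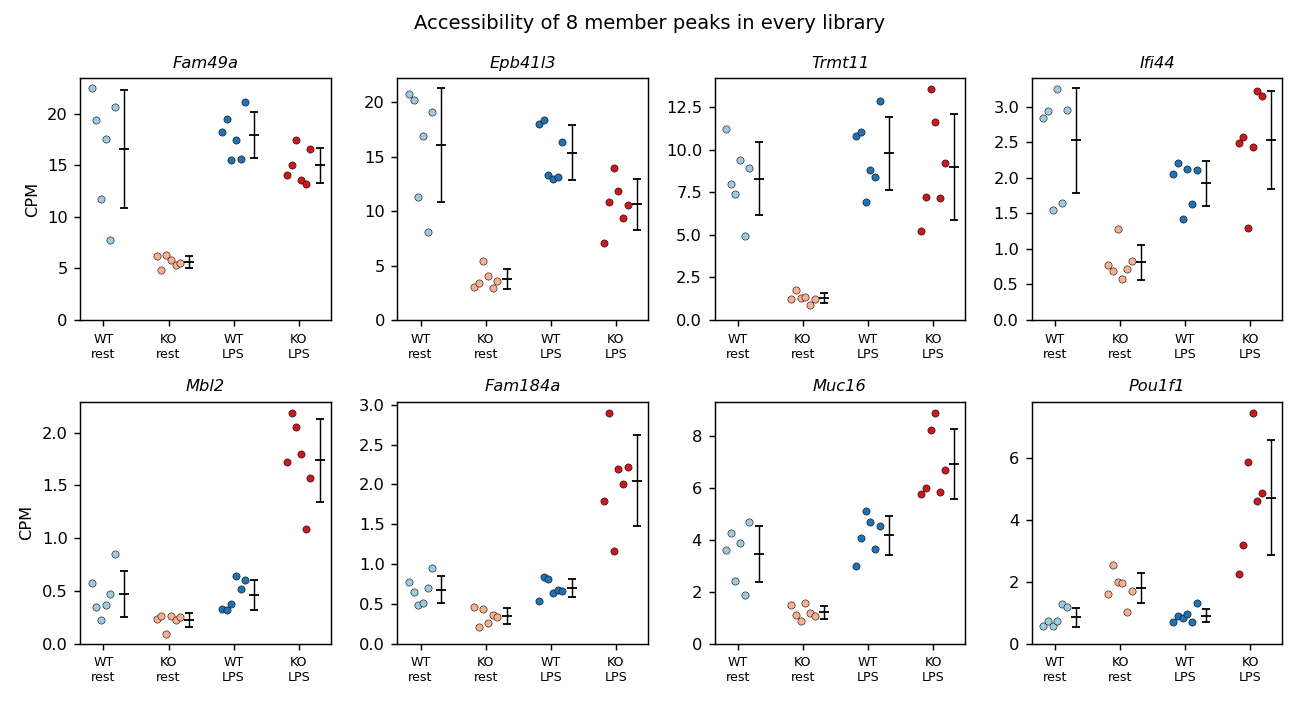
CPM of 8 members in every library (points) with the mean and SD of 6 libraries (bars), in WT and AhR-KO (KO) cells at rest and with LPS; each panel has its own axis from 0 and is named by the nearest gene (for Trmt11 and Pou1f1, the second of their members by position). At Fam49a, Epb41l3 and Trmt11 the KO rest libraries are the low group, and at Mbl2 and Fam184a the KO LPS libraries are the high group. At Pou1f1 the KO LPS libraries reach the highest values and overlap with the KO rest ones.

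Members rarely shared a nearest gene: the 239 fell to 229 protein-coding genes by the nearest transcription start site (TSS), and 9 genes had more than 1. Trmt11, the gene of a tRNA methyltransferase subunit, had 2 members in the intergenic stretch 71.1 and 97.6 kb downstream of its start. At chr10:30529052-30530320 the libraries ran from 4.92 over 8.45 to 11.2 CPM in WT and from 0.857 over 1.26 to 1.74 CPM in AhR-KO cells at rest. With LPS they ran from 6.94 over 9.80 to 12.9 CPM in WT and from 5.23 over 8.20 to 13.5 CPM in AhR-KO cells. The AhR-KO fold of 7.01 was the highest of the 239 members after that at Mbl2, and AhR-KO and WT libraries overlapped with LPS.

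At the other Trmt11 member, chr10:30502588-30503652, AhR-KO means went from 1.83 to 5.92 CPM and WT means from 4.73 to 5.52. The 2 members nearest to Pou1f1, the gene of a pituitary transcription factor, lay next to each other on chromosome 16, from 65384596 to 65387267, and are not independent sites. At chr16:65386726-65387267 AhR-KO libraries ran from 1.04 over 1.83 to 2.53 CPM unstimulated and from 2.25 over 4.75 to 7.46 with LPS, against 0.575 over 0.739 to 1.29 and 0.712 over 0.873 to 1.30 in WT. AhR-KO cells were higher than WT already at rest there, and the groups with and without LPS overlapped in AhR-KO cells. Within 50 kb of each other lay only 8 members in 4 pairs, near Trmt11, Pou1f1, Gbe1 and Vtcn1.

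Of 222 genes in 12 lists of cytokines, chemokines, interferon, TLR4, eicosanoid, AhR and related genes, 212 were nearest to an eligible peak and 3 of these (1.42%, exact 95% interval 0.293 to 4.08%) had a member, against 1.30% of all 17666 protein-coding genes nearest to an eligible peak. The share of listed genes was thus near that of all genes. Cd80 encodes a costimulatory ligand for T cells, and its intronic peak at chr16:38468495-38469105 held 0.271 over 0.393 to 0.777 CPM in AhR-KO unstimulated and 0.804 over 1.04 to 1.74 in AhR-KO LPS libraries, against 1.07 over 1.71 to 2.45 and 1.33 over 1.84 to 2.14 in WT. Here AhR-KO cells stayed below the WT mean with LPS. Ifi44, an interferon-induced gene, had a member in an intron at chr3:151742289-151742718, where the AhR-KO mean went from 0.812 ± 0.244 to 2.53 ± 0.691 CPM and the WT mean from 2.53 ± 0.735 to 1.92 ± 0.320. Kynu encodes kynureninase of tryptophan breakdown, a pathway whose products include AhR ligands. Its member, chr2:43341942-43342154, lay 213 kb upstream and held 0.603 over 1.26 to 1.72 CPM in AhR-KO LPS libraries and at most 0.809 in the other 3 groups.

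Each library was also left out in turn, and members were chosen from the other 23. The fold was then read from the left-out library against the mean of the opposite state of its genotype. In the 6 AhR-KO LPS libraries the median fold was 2.36 to 3.11, with 44.0 to 80.8% of the 203 to 298 chosen peaks at 2.5-fold or more, and 99.0 to 100% above the AhR-KO unstimulated mean. In the 6 AhR-KO unstimulated libraries it was 2.55 to 3.27. In the 6 WT LPS libraries it was 1.01 to 1.29, with 45.9 to 76.9% of the chosen peaks below the WT limit of the rule, a rise of 25%. In the 6 WT unstimulated libraries it was 1.11 to 1.48, and the highest value came from the shallow replicate 5. The median thus lay above 2-fold in every left-out AhR-KO library. In WT it lay below that limit in 9 of 12 left-out libraries and above it in WT LPS replicate 6 (1.29) and WT unstimulated replicates 3 (1.35) and 5 (1.48). The opposite-state means still came from libraries that took part in the choice, so that part of each fold was built in. Over all eligible peaks, the median fold between group means was 1.03 in AhR-KO and 0.999 in WT cells. The shares of all eligible peaks at these limits in single libraries were not computed.

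**Figure D4:**
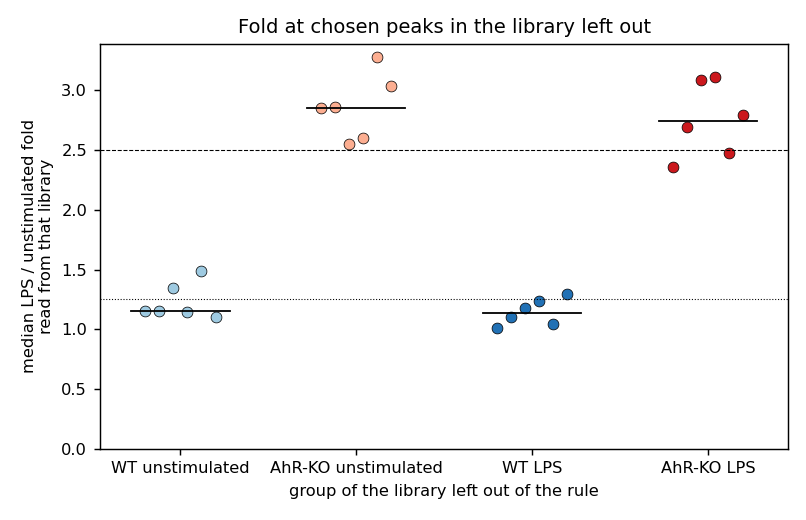
Median ratio of LPS to unstimulated CPM over the chosen peaks, read from the 1 library that took no part in choosing them (points, 1 per left-out library) with the median of 6 (bars), by the group of that library. The dashed line is 2.5-fold and the dotted line a rise of 25%; AhR-KO libraries lie at 2.36 to 3.27 and WT libraries at 1.01 to 1.48.

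The peak lists of single libraries, called on the same reads, were also compared (overlap of at least 1 base). Of all pairs of a member and an AhR-KO LPS library, 68.8% had a called peak, against 12.5% of pairs with AhR-KO libraries at rest. In WT cells the share was 33.7% at rest and 39.7% with LPS. Over all eligible peaks, the shares were 56.3% with LPS and 51.0% at rest in AhR-KO cells, and 58.5 and 49.6% in WT cells. At 16 members (6.69%) no AhR-KO LPS library had a called peak, against 26.3% of all eligible peaks. At 96 members (40.2%) all 6 had one, against 43.0% of all eligible peaks. The 120 members lower at rest had a call at rest in 58.5% of pairs in WT and 16.9% in AhR-KO libraries. The 118 others had one in 8.76 and 8.05% of those pairs and in 71.0% with LPS in AhR-KO cells. Calls depend on depth as well as on level.

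Few members lay close to a TSS, while many lay inside genes. Of 239, 123 (51.5%, exact 95% interval 44.9 to 58.0%) were intergenic, 101 (42.3%) intronic, 8 in coding exons, 3 in UTR exons and 4 (1.67%, 0.458 to 4.23%) within 1000 bases of a TSS, against 41.6% intergenic and 8.23% at a TSS among all eligible peaks. Peaks opened in both genotypes had 48.1% intergenic and 1.38% at a TSS, and the 770 peaks of the mirrored rule 47.8 and 1.56%. The members' interval for the intergenic share included both of these shares. The median distance to a TSS was 46.1 kb, against 26.3 kb for all eligible peaks and 33 kb for those opened in both genotypes. It was 33.6 kb for the 120 members lower at rest and 69.1 kb for the 118 higher with LPS, and 69 members lay over 100 kb away. Members were found on every autosome, from 5 on chromosome 17 to 27 on chromosome 3. Their median width of 537 bases was close to the 550 of all eligible peaks.

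Motif letters, which the rule did not use, were counted in 300 bases around the peak centre on both strands. AP-1 letters (TGANTCA) stood in 20.5% of members (49, exact 95% interval 15.6 to 26.2%), against 43.3% (42.5 to 44.2%) of peaks opened in both genotypes, 12.5% (10.2 to 15%) of the 770 WT only peaks and 17.9% of all eligible peaks. NF-kB letters stood in 3.35% of members (8, 1.46 to 6.49%), against 12.1% of peaks opened in both, 21% (18.2 to 24.1%) of the WT only peaks and 4.89% of all. In this window, for both, the interval of the members included the share of all eligible peaks and not that of the peaks opened in both genotypes. In 500 bases, AP-1 letters stood in 32.2% of members (26.3 to 38.5%) and 24.5% of all eligible peaks, so that the interval then lay above the share of all. The intervals cover counting error only, and neighbouring regions can share sequence.

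PU.1 letters (GGAAGT) stood in 33.9% of members (27.9 to 40.3%), RUNX letters (TGTGGT) in 28.9% (23.2 to 35.1%), C/EBP letters (TTGCNNAA) in 13% and STAT letters (TTCNNNGAA) in 12.1%, against 32.3, 27.5, 15.6 and 11% of all eligible peaks. The AhR core (GCGTG) stood in 14.6% of members (10.4 to 19.8%) and in 16.2% of all. In the whole peak it stood in 20.9% of members (15.9 to 26.6%) and 29.4% of all, so that the interval then lay below the share of all. The whole-peak share was also below that of all in the WT only peaks (20.9%) and in peaks opened in both genotypes (25.1%). Interferon response letters (GAAANNGAA) stood in 9.21% and 10.8%, E-box letters (CACGTG) in 4.18% and 4.29%, and KLF letters (GGGCGG) in 3.35% and 8.85%. The CRE letters (TGACGTCA) were found in 0 of 239 members and in 0.469% of all, and the MAF-extended AP-1 letters (GCTGANTCA), which contain the AP-1 letters, in 2.09% and 3.03%. Within the members, the classes differed in letters: RUNX letters stood in 38.3% (29.6 to 47.7%) of the 120 lower at rest and 19.5% (12.8 to 27.8%) of the 118 others. NF-kB letters stood in 8 of the 120 and 0 of the 118, and AhR core letters in 19.2% and 10.2%. The classes were formed after the values were seen, and these differences carry no test.

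**Figure D5:**
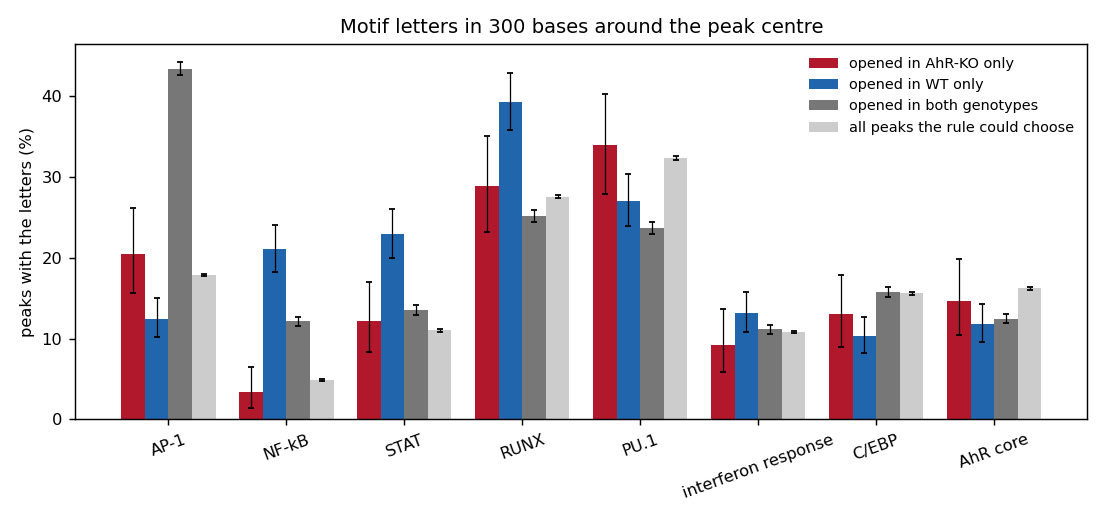
Share of peaks (%) with each motif's letters in 300 bases around the centre, for the 239 members (red), 770 peaks opened in WT only (blue), 13521 opened in both genotypes (dark grey) and all 176815 eligible peaks (light grey), with exact binomial 95% intervals. In this window members hold AP-1 letters in 20.5% and NF-kB letters in 3.35%, all eligible peaks in 17.9 and 4.89%, and peaks opened in both genotypes in 43.3 and 12.1%; in 500 bases the AP-1 shares of members and all are 32.2 and 24.5%.

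Peaks around the members, which the rule did not choose, moved in the same direction more often than peaks at large. Of 3090 other tested peaks within 50 kb of a member, 437 (14.1%, exact 95% interval 12.9 to 15.4%) were DARs in the higher direction of the interaction and 68 (2.20%) in the lower one, against 5.83 and 4.58% of all tested peaks. With LPS, 24.8% of them were higher and 8.80% lower in AhR-KO than in WT cells, against 13.4 and 13.1% of all. At rest, 9.35% were higher and 12.8% lower, against 9.95 and 12.6% of all. With LPS against rest, 42.7% of the neighbours were higher DARs in AhR-KO and 31.4% in WT cells, against 27.3 and 25.4% of all. Lower DARs made up 13.5 and 17.7%, against 21.5 and 21.6% of all. In WT cells, too, neighbours thus opened with LPS more often than peaks at large. The share of higher interaction DARs was 19.5% within 10 kb and 12% within 100 kb, and 13.9% when the 69 peaks under 1 kb from a member, which may share read pairs with it, were left out. RLE scaling gave 12.2% within 50 kb, outside the exact interval. Leaving out each library in turn gave 11.9 to 14.9%, and 9 of these 24 values lay outside it. The interval covers counting error only and takes neighbouring peaks as independent. Around the 118 members higher with LPS, 34.2% of neighbours were higher in AhR-KO LPS than in WT LPS cells, and around the 120 lower at rest 18.3% were. The 118 were set apart by this same genotype ratio in the same libraries, after the values were seen. The difference between the classes therefore carries no test.

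At the nearest genes themselves, most TSS peaks were not DARs in the interaction. Of 186 tested TSS peaks that were not members, 8 (4.30%) were DARs in the higher direction of the interaction and 1 (0.538%) in the lower, against 1.02 and 2.37% of 12108 TSS peaks of all protein-coding genes. With LPS in AhR-KO cells, 12 of the 186 were higher DARs (4.22% of all 12108) and 15 lower ones (10.4%), and in WT cells 5 were higher (3.63%) and 15 lower (5.68%). The interaction was positive at 121 of 186 (65.1%) and at 42.4% of TSS peaks of all genes, with medians of 0.09 and -0.05 on the log2 scale. Plod2, the gene of a collagen lysyl hydroxylase with a member 19.2 kb away, had the smallest p: its TSS peak went from 14.5 ± 2.16 to 28.7 ± 4.62 CPM with LPS in AhR-KO and from 16 ± 0.662 to 17 ± 1.62 CPM in WT cells (SD, n = 6), and the interaction was 0.91 ± 0.12 (log2, SE; edgeR adjusted p = 3.9e-06). AhR-KO LPS libraries ran from 23.3 to 35.1 CPM and all others from 11.7 to 19.2.

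The TSS peak of Ifi44 rose in both genotypes, from 3.01 to 15.6 CPM in AhR-KO and from 4.16 to 10.0 CPM in WT cells, with an interaction of 1.16 ± 0.21 (edgeR adjusted p = 0.00040). That of S1pr3, a receptor of sphingosine 1-phosphate, went from 4.62 to 10.8 CPM and from 7.41 to 10.2 CPM (0.78 ± 0.15, edgeR adjusted p = 0.00062). The interactions at Hivep3 (0.40 ± 0.08) and Gm15446 (0.44 ± 0.09) passed the p threshold and not the fold threshold. The other 5 higher DARs were at Prkg2, Rnf225, Plac8, Tmem26 and Oprm1, named after their values were seen, with interactions of 0.67 to 1.61. Prkg2, the gene of a cGMP-dependent kinase with a member 7.89 kb away, went from 0.924 to 6.74 CPM in AhR-KO and from 0.678 to 1.65 CPM in WT cells.

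In the opposite direction, the TSS peak of Myc, whose start lay 466 kb from a member, fell from 32.9 to 10.0 CPM in AhR-KO and from 41.3 to 20.6 CPM in WT cells, with an interaction of -0.69 ± 0.10 (edgeR adjusted p = 2.2e-05). Below the fold threshold, the interaction was -0.47 ± 0.09 at Bcl11a, a zinc finger repressor gene, -0.27 ± 0.07 at Spsb4, -0.29 ± 0.08 at Itga1, an integrin gene, and -0.39 ± 0.11 at Il16, a cytokine gene. These starts lay 591, 10.4, 121 and 18 kb from a member. Assignment to the nearest TSS does not show which gene a region acts on.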

How the data were processed

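The authors made the count table with the nf-core atacseq pipeline on mm10: after alignment and filtering, MACS2 called broad peaks in each library, the calls were merged, and read pairs per consensus peak were counted with featureCounts, with no pooling of replicates. The deposited values were raw counts. The authors also deposited 1 peak list per library with each peak's score, its fold enrichment (ratio to local background) and its -log10 p-value and q-value; only the latter was used, and its lowest value per list was 1.00 to 1.03. Base calls came from bcl2fastq 2.20.0 per the submitters' processing notes.

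All 24 columns matched 1 library by name. Members and lists were chosen with earlier results of these data known. CPM used each column's total. Counts were tested with edgeR 4.0.16 (R 4.3.3; filterByExpr, TMM, trended dispersion, robust quasi-likelihood, group as the only term, all 24 libraries), two-sided, Benjamini-Hochberg adjusted over 174193 peaks. The fit was run on simulated counts with a single fixed spread and no LPS or genotype effect besides the interaction. It called 8 of 67 peaks given a 1.5-fold interaction, 41 of 67 at 2-fold and 63 of 66 at 4-fold. Of 171886 unchanged peaks it called 9. Peaks were assigned to the nearest protein-coding TSS of the GENCODE basic annotation (vM21, mm10). Overlaps used bedtools 2.31.1. Exact binomial intervals are Clopper-Pearson at 95% and, like PCR reads without molecular identifiers, cover counting error only.

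One gene that the rule below names, with its members, is not reported here. Named members were the 8 with the largest ratio of AhR-KO to WT fold among the 117 whose AhR-KO LPS libraries lay above all AhR-KO unstimulated and WT LPS libraries, the 6 with the highest AhR-KO LPS level, those of the 3 nearest genes with most members, those near listed genes, those next to each threshold, and the 5 nearest-gene TSS peaks with the smallest interaction p in each direction. No duplicates were found: the closest of 60 pairs of libraries of 1 group had a chi-square per peak of 1.23, above the 1 of sampling noise. The study gives 6 animals per group, and no label ties a library to an animal. Other scalings, filters, thresholds, a replicate block, DESeq2 1.42.0 and leaving out each library were tried.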

Additional observations from a re-analysis of the deposited data

Results flagged for a closer look

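Each named peak was searched in each group of 6 libraries for a library far from the others, by Dixon's 95% criterion on the gap to the nearest as a share of the group's range. Of 120 groups, 7 held one, and chance alone gives about 1 in 20. In AhR-KO unstimulated replicate 3, the Slc25a13 member held 5.64 CPM (2.48 to 2.83 in the others), the Ifi44 member 1.28 CPM (0.575 to 0.833) and the Mbl2 member 0.0881 CPM (0.225 to 0.266). In WT unstimulated replicate 5, the shallowest library, the Calb1 member held 0.586 CPM (0.173 to 0.278). The Flrt3 member held 0.324 CPM in WT unstimulated replicate 4 (0.469 to 0.515), the Slco3a1 member 2.73 CPM in AhR-KO LPS replicate 5 (1.58 to 1.93), and the Myc TSS peak 11.9 CPM in AhR-KO LPS replicate 3 (9.13 to 10.1).

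The LPS effect differed between the genotypes, by the interaction in edgeR, at 9 TSS peaks of nearest genes. On the log2 scale it was 0.91 at Plod2, 1.16 at Ifi44, 0.78 at S1pr3, 1.61 at Prkg2, 0.75 at Rnf225, 1.252 at Plac8, 0.67 at Tmem26, 0.70 at Oprm1 and -0.69 at Myc. At Tmem26 the WT level fell from 20.2 to 10.47 CPM with LPS, and the AhR-KO level was 9.56 CPM without and 7.72 CPM with LPS, so that the positive interaction came with a fall in WT and no rise in AhR-KO cells.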

How the results depend on the processing

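The membership moved with the thresholds and with the summary of the 6 libraries. The number of members, 239, became 688 and 96 with an AhR-KO fold of at least 2 and 3, 62 and 715 with a WT fold under 1 and 1.5, and 465 and 107 with an AhR-KO LPS level of at least 0.5 and 2 CPM. It was 265 with TMM totals, 222 with RLE size factors, 249 with the chromosome 12 region kept and 203 to 298 without 1 library. With medians in place of means 279 peaks were chosen, which shared 163 of the 239 (68.2%). The median fold in left-out AhR-KO LPS libraries, 2.74, was 2.25 and 3.24 with AhR-KO folds of at least 2 and 3.

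DARs at a fold of at least 2 numbered 8862 in the interaction, in place of 18132, 52749 and 50295 for LPS in AhR-KO and WT, and 19841 and 17393 for genotype with and without LPS. With no fold threshold the genotype comparisons gave 77786 and 69829, in place of 46093 and 39347. Without 1 library, DARs ranged from 16234 to 20743 in the interaction, 84454 to 86082 and 81327 to 82940 for LPS in AhR-KO and WT, and 43403 to 48879 and 36587 to 40678 for genotype with and without LPS. DARs among TSS peaks ranged from 8 to 10, and the share of neighbours called higher from 11.9 to 14.9%. That share was 19.5% within 10 kb, 12% within 100 kb and 12.2% with RLE size factors. No setting reversed the direction of a named value, and for the interaction at named TSS peaks 290 of 290 values kept their side of the p threshold. The cause was not tested.

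In the whole peak, motif shares of members were 36.4% for AP-1, 6.69% for NF-kB and 20.9% for the AhR core, against 31.3, 10.3 and 29.4% of all eligible peaks, and in 500 bases 32.2% against 24.5% for AP-1. Calls in AhR-KO LPS libraries fell from 68.8% of pairs to 50.3% with an overlap of at least 50% and to 59.2% at a -log10 q of at least 2. With DESeq2, 18109 peaks passed the DAR thresholds in the interaction, and 226 members were higher ones. The rule used this contrast, so the members' counts in other fits show only what was chosen.

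Same-numbered libraries of different groups correlated in their deviations at 0.05 to 0.34 within WT (5 of 6 above 0.1), 0.01 to 0.21 within AhR-KO (3 of 6) and -0.14 to 0.27 across genotypes. No pair of groups had every pair above 0.1, so the numbers were not taken as pairs. This criterion could not exclude pairing within a genotype: 4 of 6 numbers in WT and 3 of 6 in AhR-KO matched best with their own number. With the replicate block over the 4 groups the interaction had 19896 DARs and 232 of 239 members among them, and with the replicate block within genotype, which could not be fitted for the genotype comparisons, 23406 and 235. The members' counts again follow from their choice. The block within genotype gave 17% of neighbours called higher. This and the 1 to 50 kb setting were chosen after seeing the data. In the shallowest library, with 8.54 M counts, values under 1 CPM rest on fewer than 9 counts.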

Other observations

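Over the 12 gene lists, the share of tested peaks that were DARs in the interaction is given beside 5.83% higher and 4.58% lower of all tested peaks. Of the 172 peaks of 24 interferon-stimulated genes, 29.1% (50) were higher and 0 lower, and 1 was a member. Of LPS-induced cytokines and enzymes 13.3% were higher and 5.56% lower, of eicosanoid genes 11.2 and 4.38%, of TLR4 and NF-kB signalling 8.39 and 1.68%, and of matrix and TGF-beta genes 7.46 and 4.41%. Of AP-1, ATF and MAF factors 7.11% were higher and 3.44% lower, of chemokine receptors 5.92 and 4.14%, of feedback inhibitors 5.63 and 4.60%, and of chemokines 4.07 and 7.32%. Of AhR targets and partners 3.76% were higher and 5.16% lower, of costimulation and antigen presentation genes 3.68 and 9.82%, and of alveolar macrophage and lineage genes 2.89 and 7.07%. The costimulation and AhR lists held 1 member each, and the other 9 lists held 0.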
